A study of Mus musculus
Mus spretus with 18 samples.

Results

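The amyloid precursor protein (APP) family and the Fe65 family of adaptors that bind it were described across tissues, alleles and a drug treatment in F1 hybrid mice. The members were 6 genes chosen by name, App, Aplp1, Aplp2, Apbb1, Apbb2 and Apbb3, of 38924 genes in the expression table. They held 55 of the 86237 skipped exons (SE) and 85 of the 125200 SE events, where an event is an exon together with the flanking exons it is joined to. All animals and cells were female hybrids. Their mother was C57BL/6J, a standard laboratory strain, and their father SPRET/EiJ, which derives from the wild species M. spretus, so that each library holds both alleles in the same cells. Cerebral cortex, heart, kidney, lung, spleen and liver came from mice aged 8 weeks, and embryonic stem cells (ESC) were cultured, with 2 libraries each and 14 in all. Another 4 libraries came from hybrid fibroblasts, 2 of them exposed to pladienolide B (PladB) at 0.1 μM and 2 to its solvent DMSO, for 4 h. PladB binds the SF3B complex and inhibits splicing.

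Several limits come with these groups. The organ replicates are different animals, with all organs taken from the same 2 mice and no label that ties a replicate number to a mouse, and the ESC replicates are different clones, whereas the fibroblasts are a single line, so the spread between their replicates may be technical. Heart, kidney and cortex reads were trimmed to the length of the others, and the liver libraries came from an earlier study and carry other strain names in their labels. The description label of a PladB library names allelic data of DMSO cells, and its group was taken from its title. Junction reads summed over all SE events, where a read can count in several events, ranged from 46558287 to 129496306 in the tissue libraries and from 129067054 to 151755602 in the fibroblasts.

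APP is a membrane protein that is cut by secretases, and cleavage by β- and γ-secretase releases amyloid β, the peptide deposited in Alzheimer's disease. APLP1 and APLP2 are its relatives, which lack the amyloid β sequence. The adaptors APBB1 (Fe65), APBB2 (Fe65L1) and APBB3 (Fe65L2) bind the short intracellular tail of these proteins with a phosphotyrosine-binding domain. Alternative exons of App and Aplp2 are known to differ between neurons and other cells. All 6 genes lie on the minus strand of mm10, App at chr16:84952666-85175255, Aplp1 at chr7:30434980-30445582, Aplp2 at chr9:31149557-31211848, Apbb1 at chr7:105558465-105581924, Apbb2 at chr5:66298725-66619064 and Apbb3 at chr18:36671154-36679366 (RefSeq).

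Marker genes listed for each tissue were most abundant where the labels place them, with some also found elsewhere, but this did not hold for all fibroblast markers. The TPM, a level corrected for transcript length and library size, of 5 neuronal markers summed to 2616 and 2791 in cortex, against 109 to 179 in ESC and at most 75.9 in any other library. Snap25, a synaptic vesicle fusion protein, was the most abundant of them in cortex, with 894 and 910 TPM, and was at most 0.376 TPM in all other libraries. Cardiomyocyte markers summed to 47364 and 47730 in heart and also to 949 and 760 in lung. Hepatocyte markers summed to 104174 and 123355 in liver and also to 1423 and 1223 in cortex, nearly all of it Ttr (transthyretin, 1422 and 1223), a gene also expressed by the choroid plexus. Pluripotency markers summed to 3037 and 3083 in ESC. Of the fibroblast markers, Dcn had 615 and 683 TPM in heart against 32.7 and 32.9 in DMSO fibroblasts. Thy1 had 971 and 1046 in cortex against 5.51 and 5.73 in DMSO fibroblasts. In bulk libraries like these, fewer cells of a type and less RNA per cell cannot be told apart.

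App was abundant in most groups. It reached 1659 and 1770 TPM in cortex, 1111 and 1096 in kidney, 1038 and 1152 in lung, 183 and 196 in heart, 160 and 150 in spleen and 85.7 and 90.6 in liver. The 2 ESC clones had 346 and 85.2 TPM, a difference of 2.02 on the log2 scale, wider than between the replicates of any other group. Cortex, kidney and lung stood above the other tissues. Their own order was not resolved, since cortex and kidney differed by 0.63 on the log2 scale (adjusted p = 0.203).

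Aplp1 had the steepest gradient. It was at 1177 and 1296 TPM in cortex, 80.9 and 45.6 in ESC, 38.1 and 54.6 in kidney, 14.05 and 12.97 in lung, 3.47 and 3.68 in heart, 3.62 and 2.88 in spleen and 0.419 and 0.246 in liver. Both cortex libraries thus lay far above every other library. ESC and kidney did not differ beyond their spread (adjusted p = 0.171), nor did heart and spleen (adjusted p = 0.669).

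Aplp2 was the most even of the precursor family. Its level was 581 and 591 TPM in lung, 568 and 579 in cortex, 482 and 363 in ESC, 391 and 395 in kidney, 256 and 264 in heart, 163 and 174 in liver and 137 and 135 in spleen. Lung and cortex did not differ beyond their spread (adjusted p = 0.808).

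Among the adaptors, Apbb1 was led by cortex with 388 and 417 TPM. Heart followed with 125 and 120, lung with 79.2 and 78.6, ESC with 18.98 and 37.39, kidney with 27.5 and 23.0 and spleen with 9.96 and 6.93, and liver was last with 0.312 and 0.369. Apbb2 was low, between 11.9 and 17.9 TPM in the libraries of cortex, heart, ESC, kidney and lung, 4.44 and 4.02 in spleen and 1.74 and 1.61 in liver. Neighbours in the order of the first 5 of these tissues did not differ beyond the spread (adjusted p of 0.281 or more), but cortex was higher than lung (adjusted p = 0.00574) and kidney (0.0352), and heart than lung (0.0495). Apbb3 was highest in spleen with 86.0 and 64.9 TPM and in cortex with 68.8 and 70.0, which did not differ beyond their spread (adjusted p = 0.577), and lowest in liver with 20.2 and 18.2.

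**Figure D1:**
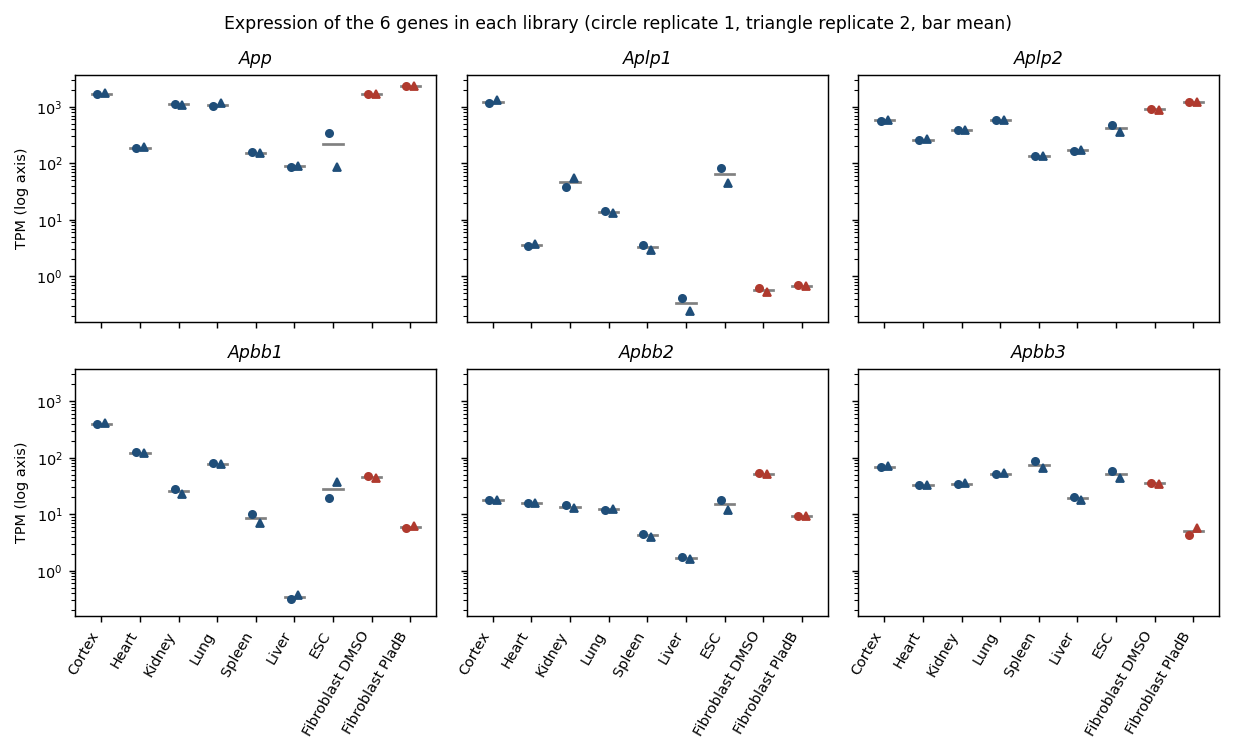
Expression of the 6 genes in TPM (log axis) in each library of the 9 groups, with replicate 1 as a circle, replicate 2 as a triangle and the group mean as a bar. The cortex libraries of Aplp1 lie at 1177 and 1296 TPM, those of liver at 0.419 and 0.246, and the 3 adaptors lie lower in PladB (red, right) than in DMSO fibroblasts.

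Against the mean of the other 6 tissues, all 6 genes were higher in cortex (limma on log2(TPM + 0.1), Benjamini-Hochberg adjusted over 22136 genes). The difference was 7.34 ± 0.20 (SE) on the log2 scale for Aplp1, 4.56 ± 0.19 for Apbb1, 2.59 ± 0.33 for App, 1.13 ± 0.11 for Apbb2, 0.99 ± 0.08 for Aplp2 and 0.78 ± 0.13 for Apbb3, with an adjusted p of at most 0.000112. The background of this call is high, since 51% of all genes tested were higher in cortex, and the median of all genes was 0.38. With quantile normalization, which moves that median to -0.38 and the share of higher genes among the calls from 61.6% to 40.8%, all 6 were still higher, Apbb2 by 0.36 and Apbb3 by 0.32. The neuronal markers rise in the same 2 libraries, as do the summed markers of oligodendrocytes (2223 and 2034 TPM, at most 33.5 in other libraries) and astrocytes (853 and 884, at most 96.7), those of microglia (80.1 and 75.5, at most 35.9) and Ttr. The part of these cells in the differences was not tested. An F test over all tissues called 6 of 6 members, but also 99.3% of all genes.

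Genes around the family were counted from lists. Of 12 secretase genes and partners, 6 were higher and 3 lower in cortex, beside 51% higher and 31.7% lower among all genes, with a median log2 difference of 0.26 beside 0.38 for all genes. Bace1, the β-secretase, was higher by 2.06 and Aph1b, a subunit of γ-secretase, by 2.27, Aph1c, a related subunit, by 1.68 and the α-secretase Adam10 by 0.94. Of 14 other adaptors, motors and partners, 10 were higher and 3 lower, with a median of 2.35. The scaffold Mapk8ip2 had the largest difference, 8.996, followed by Apba2 with 6.75, Apba1 with 6.44 and Dab1 with 6.43, all of them adaptors of APP. Of 10 sorting receptors and genes of amyloid β uptake and degradation, 6 were higher and 4 lower, with a median of 0.93. The sorting receptors Sort1 and Sorl1 were higher by 3.78 and 2.98, the protease Ece2 by 2.98 and the chaperone Clu (clusterin) by 1.51. Genes named from these lists were all higher in cortex, and none of the lower ones is named.

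By the correlation of tissue means of log2(TPM + 0.1) over 7 tissues, the genes most like App were Dnah7b (Pearson's r = 0.991), Bmpr1b (0.988) and Mir1901 (0.986). For Aplp1 they were Cep19 (0.994), BC023829 (0.990) and Gm15487 (0.989). For Aplp2 they were Cdc42bpb (0.982), Nme5 (0.978) and Spats2l (0.978). For Apbb1 they were Dynlrb1 (0.989), Extl3 (0.989) and Lrfn4 (0.986). For Apbb2 they were Cc2d2a (0.992), Mum1l1 (0.987) and 2700033N17Rik (0.981), and for Apbb3 mmu-mir-7036 (0.997), Scarna13 (0.996) and Top2b (0.991). The members' own patterns were most alike for Apbb1 and Apbb2 (r = 0.925) and least alike for Aplp2 and Apbb3 (r = 0.299). These values describe 7 points that share the same libraries.

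Inclusion of each exon was measured as percent spliced in (PSI, from 0 to 1), the share of transcripts that include it, in groups where each replicate had 20 or more junction reads. Of the 55 exons, 32 could be compared between tissues and 6 were called, with an adjusted p under 0.05 and a switch score of 0.1 or more, where the switch score is the largest difference between the mean PSI of any pair of tissues. Among all exons tested 8.6% were called. The median switch score was 0.00922 over the members and 0.0140 over all exons. Most exons of the family were close to constitutive: of 41 exons not named here, 39 could be measured in some group, 37 of these had a mean PSI above 0.95 in every such group, and the 19 compared between tissues had switch scores of at most 0.0549. The 5 exons of Aplp1 and the 5 of Apbb1 had a mean PSI above 0.95 in every group where they could be measured. A 131-bp exon stood for Aplp1, with PSI values of 1 and 0.9997 in cortex, and a 177-bp exon for Apbb1, with 0.999 and 1 in cortex and 0.998 and 0.999 in heart.

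The 54-bp exon of App (chr16:84971408-84971461, mm10, minus strand) has the length of the exon left out of the L-APP forms, whose skipping creates an attachment site for chondroitin sulfate. Its PSI was 0.978 and 0.980 in cortex, 0.605 and 0.607 in liver, 0.593 and 0.614 in kidney, 0.454 and 0.468 in heart, 0.451 and 0.446 in lung and 0.400 and 0.398 in spleen, with at least 2732 reads per library in these organs. Inclusion was nearly complete in cortex and partial in the other organs, and no cortex value overlapped with theirs. The ESC clones had 0.832 and 0.973, the second close to cortex. The switch score was 0.580 (quasi-binomial F test, adjusted p = 4.73e-09), and 16 of 21 pairs of tissues were called. Of all exons, 10.4% were called between cortex and heart, 10.1% between cortex and kidney, 10.1% between cortex and lung, 11.1% between cortex and spleen, 11.7% between cortex and liver and 9.45% between cortex and ESC. Heart differed from kidney in 7.55%, from lung in 6.37%, from spleen in 8.02%, from liver in 8.82% and from ESC in 8.42% of exons. Kidney differed from lung in 2.23%, from spleen in 2.83%, from liver in 0.926% and from ESC in 4% of them, and lung from spleen in 1.95%, from liver in 3.07% and from ESC in 4.15%. Spleen differed from liver in 3.72% and from ESC in 3.91%, and liver from ESC in 4.83%. For the App exon, heart, lung and spleen did not differ from each other past the threshold, nor did kidney and liver (adjusted p of 0.312 or more). Cortex and ESC differed by 0.0766 (adjusted p = 0.000432), under the limit of 0.1.

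In Aplp2, the 36-bp exon (chr9:31156190-31156225, minus strand) occupies the place in that gene that the 54-bp exon has in App. Its PSI was 0.847 and 0.850 in cortex, 0.321 and 0.322 in heart, 0.187 and 0.170 in lung, 0.118 and 0.117 in spleen and 0.0793 and 0.0989 in ESC. Liver had 0.0704 and 0.0816, and kidney 0.0616 and 0.0724. The exon was thus mostly included in cortex alone, and heart held an intermediate level apart from all other tissues. The switch score was 0.781 (adjusted p = 2.21e-16) and 13 of 21 pairs were called, among them cortex against each of the other 6 tissues.

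The 168-bp exon of Aplp2 (chr9:31167561-31167728, minus strand) has the length of the exon for the Kunitz protease inhibitor domain, a domain that inhibits serine proteases. Its order of tissues was another one. Liver had 0.724 and 0.742, cortex 0.696 and 0.733, heart 0.703 and 0.686, lung 0.616 and 0.601, spleen 0.617 and 0.607, ESC 0.517 and 0.452 and kidney 0.484 and 0.488. Liver, cortex and heart did not differ past the threshold (adjusted p of 0.349 or more), and kidney and ESC were below the other tissues. The switch score was 0.248 (adjusted p = 1.22e-07), and 14 of 21 pairs were called. The corresponding exon of App was not analysed here.

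The adaptors Apbb2 and Apbb3 each held a micro-exon of 6 bp, and 3 of the 55 exons were 30 bp or shorter. That of Apbb2 (chr5:66323602-66323607, minus strand) had a PSI of 0.890 and 0.869 in cortex, 0.601 and 0.681 in heart, 0.412 and 0.416 in lung, 0.425 and 0.340 in spleen, 0.127 and 0.137 in kidney and 0.0647 and 0.0445 in ESC. In liver it was 0 and 0.105, where 22 reads in the shallower library leave the level loosely set. It had the widest range of all exons of the family, with a switch score of 0.827 (adjusted p = 6.87e-09) and 16 of 21 pairs called.

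The micro-exon of Apbb3 (chr18:36676617-36676622, minus strand) had a PSI of 0.943 and 0.973 in cortex, 0.708 and 0.732 in spleen, 0.631 and 0.587 in liver, 0.561 and 0.607 in heart, 0.463 and 0.481 in lung, 0.416 and 0.411 in kidney and 0.441 and 0.299 in ESC. Cortex was again above all other tissues without overlap, and spleen came next. The switch score was 0.588 (adjusted p = 3.54e-07). Of 21 pairs 11 were called, among them cortex against each of the other 6 tissues. The 6-bp exon of Apbb1 was not analysed here.

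The calls of a further pair of exons were not stable. The 63-bp exon of Apbb2 (chr5:66392273-66392335) had a PSI of 0.525 and 0.583 in kidney and of 0.534 and 0.595 in liver, against 0.850 and 0.866 in cortex and 0.918 to 0.954 in heart, lung and spleen. The ESC clones had 0.919 and 0.339, further apart than the means of any pair of tissues. Its switch score of 0.397 was not called (adjusted p = 0.514), but it was called without ESC (adjusted p = 9.66e-12), without either ESC clone, and with another form of the dispersion prior. The switch score rose to 0.612 without ESC replicate 1 and was 0.397 without ESC replicate 2. The 77-bp exon of Apbb3 (chr18:36678394-36678470) had 0.918 and 0.805 in ESC and 0.963 to 1 in cortex, kidney and spleen. It was called (switch score 0.133, adjusted p = 0.0389), but close to the threshold. The call was lost without ESC (switch score 0.0233, adjusted p = 0.376) and with a prior without depth trend (adjusted p = 0.0569). It was also lost in 10 of 14 fits that left out a single library. These were either library of cortex, kidney, heart or lung, the last 2 tissues without a value for this exon, spleen replicate 1 and ESC replicate 2. The switch score fell to 0.0766 without ESC replicate 2 but stayed at 0.131 to 0.133 in the others.

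**Figure D2:**
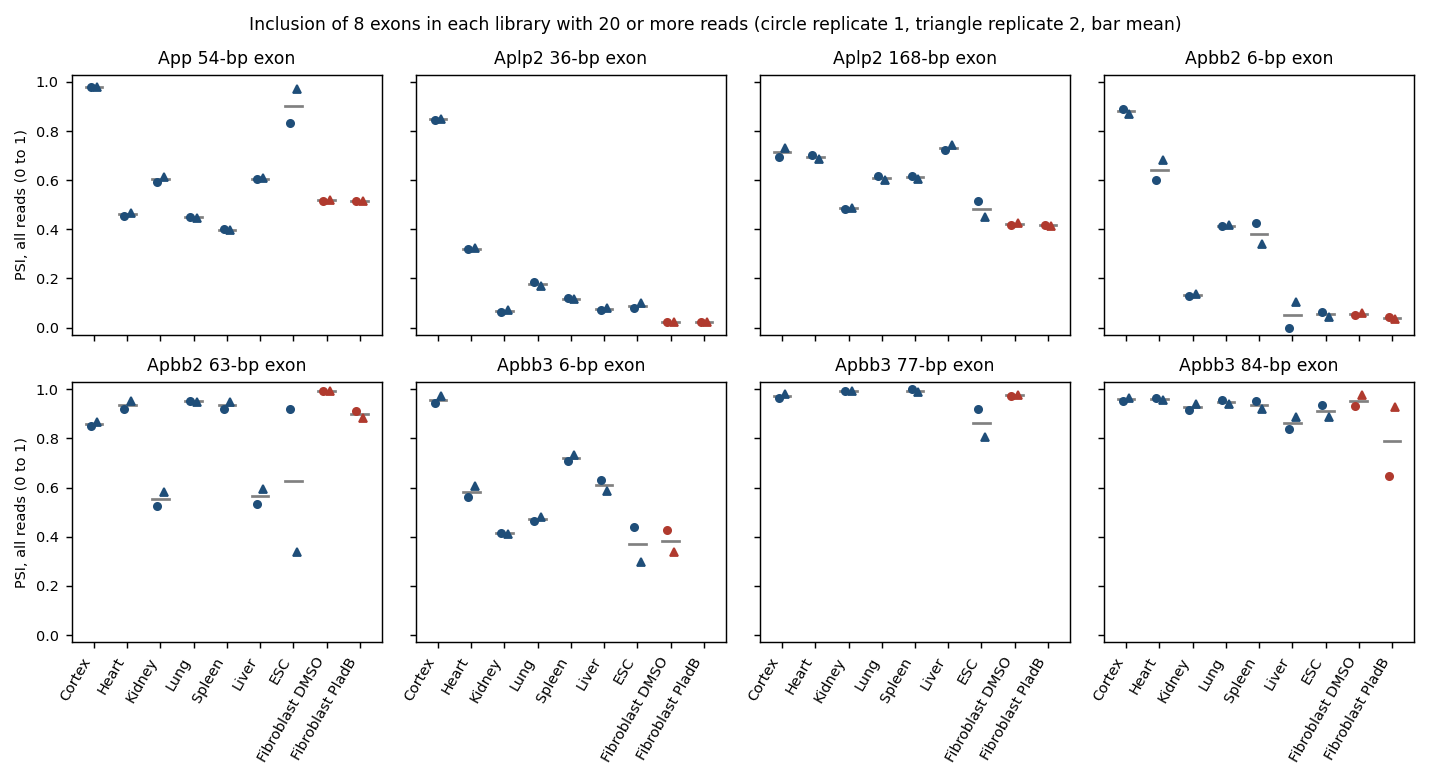
PSI of 8 exons from all reads in each library with 20 or more junction reads, with replicate 1 as a circle, replicate 2 as a triangle and the group mean as a bar (fibroblasts in red). Cortex is highest for the 54-bp exon of App, the 36-bp exon of Aplp2 and both 6-bp exons, and the ESC clones of the 63-bp exon of Apbb2 lie at 0.919 and 0.339.

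The 5 exons called with and without ESC have lengths that are multiples of 3, as do 33 of all 55 exons, so that skipping them keeps the reading frame. Of 19 regulators of neural exons in a list, 17 were higher and 2 lower in cortex, beside 51% higher and 31.7% lower among all genes, with a median log2 difference of 4.74 beside 0.38. The largest differences were those of Elavl3 (8.83), Celf4 (8.77), Elavl4 (8.37) and Rbfox3 (8.27), RNA-binding proteins of neurons. The 2 lower ones were Ptbp1 (-2.15), a repressor of neural exons, and its relative Ptbp3 (-0.81). Srrm4, an activator of neural micro-exons, had 25.8 and 25.6 TPM in cortex, 13.2 and 11.9 in heart, 0.818 and 1.08 in ESC, 0.946 and 0.673 in liver, 0.160 and 0.218 in kidney, 0.0976 and 0.0650 in lung and 0.0251 and 0.0137 in spleen. Its level was lower in lung and spleen than in ESC and liver. Rbfox1, a regulator of brain and muscle exons, had 244 and 245 TPM in cortex, 27.7 and 27.9 in heart and at most 1.32 in the other tissues. Ptbp1, Ptbp3, Srrm4 and Rbfox1 were picked after their values were seen. The part of these regulators in the inclusion of these exons was not tested.

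Allelic reads, those that carry a strain's variants, gave the PSI of both alleles in the same library. With 20 or more reads per allele and replicate, 181 comparisons of a member exon in a group were made, and 14 were called, beside 2.34% of all exon comparisons in the 9 groups. The 14 calls came from 5 exons, and 11 of them from the exons of App and Apbb3 described next.

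The 54-bp exon of App was included less on the C57BL/6J allele in all 9 groups, and was called in 7. Calls were made for 3.54% of all exons in heart, 2.86% in lung, 2.3% in kidney, 2.64% in spleen, 2.48% in cortex, 2.03% in liver, 0.426% in ESC, 2.93% in DMSO and 2.51% in PladB fibroblasts. In liver the PSI was 0.313 and 0.274 on the C57BL/6J allele against 0.615 and 0.630 on the SPRET/EiJ allele (adjusted p = 2.94e-05). In kidney it was 0.411 and 0.445 against 0.641 and 0.678, in heart 0.281 and 0.319 against 0.534 and 0.514, in lung 0.304 and 0.304 against 0.482 and 0.467, and in spleen 0.268 and 0.272 against 0.404 and 0.426. The alleles did not overlap in any of these organs, and the difference (C57BL/6J minus SPRET/EiJ) ran from -0.329 in liver to -0.145 in spleen. In fibroblasts it was -0.192 with DMSO and -0.200 with PladB. In cortex, where the exon is almost always included, the PSI was 0.965 and 0.969 against 0.983 and 0.981, a difference of -0.0157 that passed the test (adjusted p = 0.00648) but not the limit of 0.1. The ESC clones had 0.665 and 0.925 against 0.937 and 0.990, which was not called (adjusted p = 0.224). Of the allelic reads of this exon, the C57BL/6J allele gave 45.6% to 50% in cortex, heart, kidney, lung, spleen and fibroblasts, 41.9% and 32.9% in the ESC clones and 19.5% and 19.9% in liver, where it had 450 and 398 reads. Allelic reads of both strains together gave a lower PSI than all reads did, with differences of -0.0489 in heart, -0.0540 in spleen, -0.0574 in kidney, -0.0582 in liver and -0.0590 in lung, so the allelic levels do not stand for all reads of the exon.

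For the 6-bp exon of Apbb3, the direction was the opposite, with more inclusion on the C57BL/6J allele in 6 of 6 groups tested. It was called in 4 of them. In DMSO fibroblasts the PSI was 0.602 and 0.860 against 0.370 and 0.246, in lung 0.764 and 0.738 against 0.378 and 0.390, in spleen 0.918 and 1 against 0.604 and 0.628, and in heart 0.721 and 1 against 0.536 and 0.527. The differences in these groups were 0.423, 0.367, 0.343 and 0.329, with adjusted p from 0.00851 in fibroblasts to 0.0449 in heart. ESC had a difference of 0.583 (adjusted p = 0.290) and cortex of 0.0566 (adjusted p = 0.225), neither of which was called. The C57BL/6J allele had few reads at this exon, 22 to 52 per library in the called groups, and gave 14.2% to 33.1% of the allelic reads there. These calls were lost when dispersions were set to at least 1 before moderation (adjusted p of 0.0512 to 0.0982). The heart call was also lost with a prior without depth trend (adjusted p = 0.0706), with events of the exon summed (0.0909) and with a prior from all events (0.118).

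**Figure D3:**
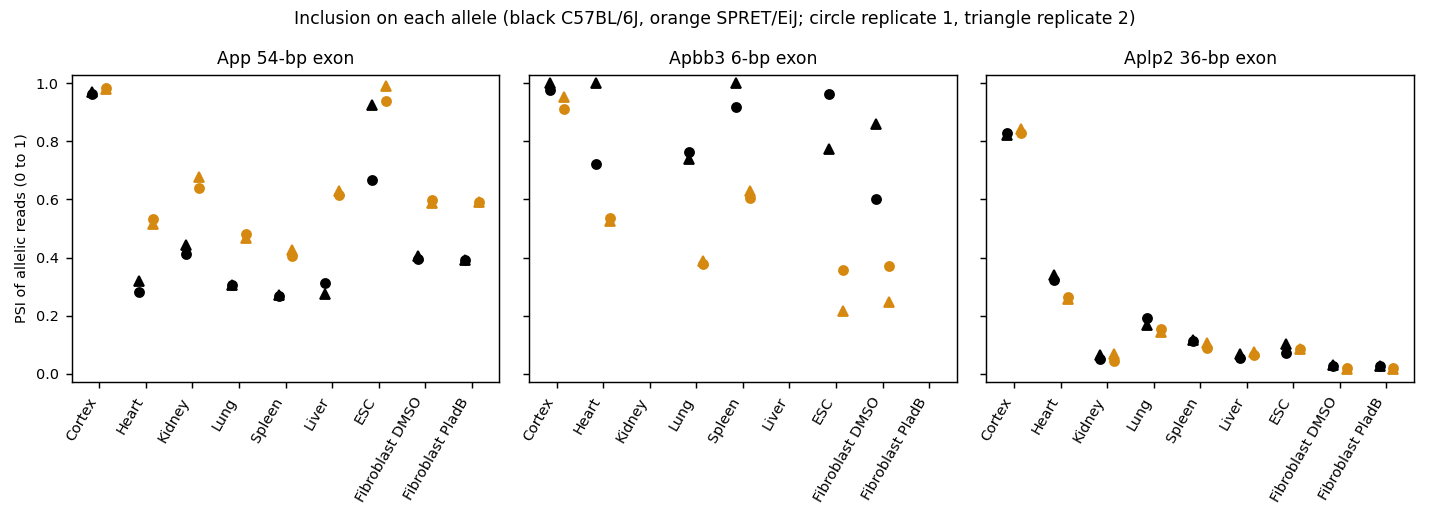
PSI of 3 exons from allelic reads, with the C57BL/6J allele in black and the SPRET/EiJ allele in orange, replicate 1 as a circle and replicate 2 as a triangle, for groups with 20 or more reads per allele and replicate. Black lies below orange for the App exon in all 9 groups and above it for the Apbb3 exon in the 6 groups shown, and the alleles lie close together for the 36-bp exon of Aplp2.

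The 36-bp exon of Aplp2, in contrast to its variation between tissues, was called in none of 9 groups, with differences from -0.00998 in cortex to 0.0688 in heart. The differences in heart (adjusted p = 0.0236) and in DMSO fibroblasts (0.00976, adjusted p = 0.0368) passed the test but not the limit of 0.1. The 168-bp exon of Aplp2 was called in DMSO fibroblasts, with a PSI of 0.341 and 0.318 on the C57BL/6J allele against 0.241 and 0.204 (difference 0.107, adjusted p = 5.47e-14). This lies at the limit of 0.1, with 0.0997 without replicate 2, and the difference with PladB, 0.0770 (adjusted p = 2.33e-08), passed the test but not the limit. In the DMSO libraries the PSI from allelic reads was 0.139 lower on average than that from all reads, so the allelic values of this exon do not stand for all of its reads. The remaining calls were in PladB fibroblasts. The 115-bp exon of Apbb2 had a PSI of 0.873 and 0.863 on the C57BL/6J allele against 0.635 and 0.637 (difference 0.232, adjusted p = 0.000398), and the 63-bp exon 0.819 and 0.696 against 0.966 and 0.959 (difference -0.205, adjusted p = 0.00979). With DMSO the 115-bp exon differed in the same direction by 0.0874, under the limit of 0.1, with an adjusted p under 0.05 in 6 of 8 fits. The 63-bp exon differed by 0.00523 with DMSO. Both alleles of a library share its preparation. With the library as a block, which leaves 1 residual degree of freedom per group, none of the 14 comparisons was called, and 15 of all 211390 event comparisons were.

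PladB lowered expression of the 3 adaptors in fibroblasts. Apbb1 went from 47.5 and 44.4 TPM with DMSO to 5.71 and 6.23, Apbb2 from 53.2 and 51.7 to 9.44 and 9.36, and Apbb3 from 36.3 and 34.5 to 4.22 and 5.67. The log2 differences were -2.92 ± 0.25 (SE), -2.47 ± 0.15 and -2.83 ± 0.17, with adjusted p of at most 4.94e-07. Lower expression was called for 46.5% of all genes and higher for 6.61%, with a median of -0.45, and these 3 lay well below it. Fitted alone, the fibroblast libraries gave a median of -1.15 over the genes tested there, 17.6% of whose calls were higher, and the 3 differences, which were the same, lay below that too. With quantile normalization, which sets the median to 0 and brings the share of higher genes among the calls from 12.4% to 43.2%, they were still called, with -1.35, -1.09 and -1.20.

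None of the precursor genes was called lower. Aplp2 went from 907 and 889 to 1215 and 1215 TPM, a log2 difference of 0.44 ± 0.10 (adjusted p = 0.00325), and App from 1699 and 1665 to 2351 and 2328, a difference of 0.48 ± 0.43. The App libraries did not overlap, but the difference was not called (adjusted p = 0.436) with a spread estimated over all groups, the ESC clones included. Fitted alone, the fibroblast libraries gave an adjusted p of 6.89e-05. With quantile normalization the App difference turned to -0.09 and that of Aplp2 fell to 0.05 (adjusted p = 0.850). Aplp1 stayed under 1 TPM, with 0.618 and 0.521 with DMSO and 0.694 and 0.676 with PladB (adjusted p = 0.569). It was called only with quantile normalization (0.90, adjusted p = 0.0165). In the lists, beside 46.5% lower and 6.61% higher among all genes, 5 of 12 secretase genes were lower and 2 higher, a lower share near that background, 9 of 14 adaptors and partners were lower and 2 higher, and 2 of 10 sorting and degradation genes were lower and 2 higher. Of the 19 regulators of neural exons, 12 were lower and 1 higher. Numb, an endocytic adaptor, had the largest drop among the adaptors (-3.44).

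At the level of exons, 36 members were compared between PladB and DMSO and 4 were called, all of them lower. Among all exons 7.43% were called, 7.22% lower and 0.204% higher. The 81-bp exon of Apbb2 (chr5:66311000-66311080) went from 1 in both DMSO libraries to 0.785 and 0.812, and the 84-bp exon, which begins at the same position and shares reads with it, from 1 to 0.873 and 0.889. The 115-bp exon of Apbb2 (chr5:66492058-66492172), which is not a multiple of 3, went from 0.900 and 0.904 to 0.759 and 0.722. The adjusted p was 3.05e-06, 3.62e-07 and 2.73e-08. The 63-bp exon of Apbb2 fell by 0.0962 (adjusted p = 4.90e-09), just under the limit of 0.1, and was called without PladB replicate 1, with a difference of -0.111 (adjusted p = 2.59e-06). The 84-bp exon of Apbb3 (chr18:36675663-36675746) had 0.931 and 0.976 with DMSO and 0.646 and 0.930 with PladB, so that a single library carried the difference. Its call (adjusted p = 0.0228) was lost without PladB replicate 1, where the difference was -0.0234 and without DMSO replicate 2 (adjusted p = 0.287).

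**Figure D4:**
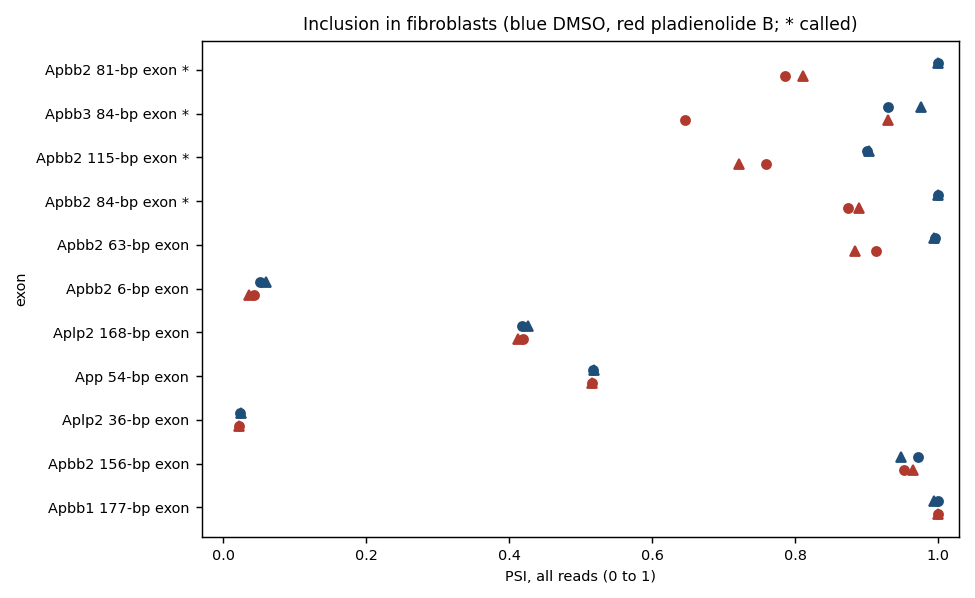
PSI of 11 exons in fibroblasts treated with DMSO (blue) or PladB (red), from all reads, with replicate 1 as a circle and replicate 2 as a triangle. Asterisks mark the 4 called exons, all in Apbb2 and Apbb3, and the exons of App and Aplp2 keep the PSI they have with DMSO to within 0.01.

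Several exons that differed between tissues were not called with PladB. The 54-bp exon of App had 0.517 and 0.518 with DMSO and 0.516 and 0.516 with PladB, over at least 24484 reads per library. The 36-bp exon of Aplp2 had 0.0234 and 0.0244 against 0.0223 and 0.0225, and the 168-bp exon 0.419 and 0.427 against 0.419 and 0.413. None of the 3 was called (adjusted p of 0.479 or more). The 36-bp exon was near 0 with DMSO and had little room to fall, as had the 6-bp exon of Apbb2, with 0.0510 and 0.0593 against 0.0427 and 0.0362 (adjusted p = 0.677). The Apbb3 micro-exon fell under 20 reads with PladB and was not compared.

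Whether the allelic difference itself changed with PladB was tested for 20 exons of the family. None was called, and 3 had an unadjusted p under 0.05, whereas 6 of 13585 events, and 0.0501% of exons, were called in all and 570 had an unadjusted p under 0.05. For the 54-bp exon of App the allelic difference with PladB minus that with DMSO was -0.00741 (adjusted p = 1). For the 63-bp exon of Apbb2 it was -0.211 (unadjusted p = 0.00362, adjusted p = 0.621) and for the 115-bp exon 0.144 (adjusted p = 1), so the 2 allelic calls seen with PladB were not shown to differ from DMSO. No retained intron of the 6 genes was listed in the table for this treatment.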

How the data were processed

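RNA-seq libraries were stranded, with 2 per group. The authors aligned reads with HISAT2 2.0.1 to mm10 and to a SPRET/EiJ genome, assigned them to alleles and counted junctions with rMATS at default settings on Ensembl 74. Their deposited junction counts hold both replicates in a list per cell, beside effective lengths of both forms, a score written by rMATS. The deposited TPM came from featureCounts, with fractional counts for overlapping genes. Deposited p-values, FDRs and inclusion differences of the authors' own comparisons were not used. The allele order follows the paper and went with imprinted genes in the organs, but could not be checked in ESC.

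Counts of both forms were divided by their effective lengths and PSI was taken as the part of the inclusion form, and the event with most reads stood for an exon. Autosomal events with 20 or more reads per replicate (and allele) were fitted with a quasi-binomial model, with dispersions of at least 1 moderated by squeezeVar of limma 3.58.1 (R 4.3.3) with a depth trend. Calls needed a Benjamini-Hochberg adjusted p under 0.05 over all events and a PSI difference of 0.1. TPM was tested with limma on log2(TPM + 0.1) for genes with 1 TPM or more in 2 libraries, in a single fit of all 18 libraries, with adjustment over all genes of a contrast. Pseudocounts shrink the differences of low genes.

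The prior was chosen with results known. A first form was taken from all events. The form used was taken from events with 5 or more reads of the rarer isoform in every group of the fit. Both were fitted to the real data and their calls seen. The form used was then compared on simulated data with the third form, in which dispersions are set to at least 1 before moderation instead of after, and kept. The disagreement of the ESC clones at the 63-bp exon of Apbb2 had played a part. The planned wording can be read as either of the last forms. Where simulated dispersions varied strongly, the form used made fewer false calls between alleles and after PladB and found fewer of the changed events. Where they varied little, both the form used and the third form made few false calls. The other forms are given as alternatives.

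Members, lists and markers were chosen with earlier results of these data known. Exons were named if called in any comparison, if among the 10 largest switch scores with a mean PSI between 0.05 and 0.95 in some group, or as the best covered exon of a gene without any. Up to 4 genes with large changes were named per list, and the 3 most correlated genes for a member. Replicate numbers were not used as a block. The alleles are paired by their library (0.0336 to 0.428, over 0.1 in 4 of 9 groups). Genes overlap some members in RefSeq (GRCm38.p6): Gm10791 in App, Nsun7 and Gm52775 in Apbb2, Slc35a4 in Apbb3 and pseudogenes in Aplp2. Alternatives were read minimums of 10 and 50, a prior without trend, summed events, blocks, left-out libraries, a pseudocount of 1, no TPM filter and quantile normalization.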

Additional observations from a re-analysis of the deposited data

Results flagged for a closer look

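Among the 14 named exons, 5 changed the sign of their allelic difference in PSI (C57BL/6J minus SPRET/EiJ) between groups. It was above 0 in both replicates of some group and below 0 in both replicates of another. For each of the 5, the most distant pair of such groups is given, and the difference between the groups was not tested. The share of all exons that meet this rule was not computed. For the 6-bp exon of Apbb2, the replicates had 0.0910 and 0.0664 in PladB fibroblasts and -0.369 and -0.105 in heart, a distance of 0.316 between the means. For the 168-bp exon of Aplp2, they had 0.171 and 0.134 in liver and -0.0455 and -0.119 in spleen, a distance of 0.235. In spleen, the PSI of this exon from allelic reads and that from all reads lay more than 0.1 apart. The 63-bp exon of Apbb2 had 0.0186 and 0.000822 in cortex and -0.147 and -0.264 in PladB fibroblasts, a distance of 0.215. The 36-bp exon of Aplp2 had 0.0570 and 0.0805 in heart and -0.0115 and -0.00695 in liver, a distance of 0.0780. The 156-bp exon of Apbb2 had 0.0217 and 0.0238 in kidney and -0.0576 and -0.0328 in heart, a distance of 0.0679. Of the group values given, only that of the 63-bp exon of Apbb2 in PladB fibroblasts was an allelic call. Each group has 2 replicates.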

How the results depend on the processing

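Of the alternatives to the counts of calls, 97 stayed within 1.5 times the reported count, and 1 did not, the allelic calls with the library block (0 against 14). These counts do not follow which exons or genes were called. Those of the F test over tissues, which called 99.3% of all genes, had little room to move. The organs came from the same 2 mice, but no label ties a number to a mouse. Deviations of same-numbered organ libraries correlated by -0.0360 to 0.0535 in PSI (0 of 15 pairs over 0.1) and by 0.0333 to 0.170 in log2 TPM (5 of 15), and those of fibroblasts by 0.00828 and -0.0133, so pairing was not shown for every pair. With the numbers as a block, the calls of the 77-bp and 84-bp exons of Apbb3 were lost (adjusted p = 0.0501 across tissues and 0.0662 after PladB), with 5 instead of 6 exons called across tissues and 3 instead of 4 after PladB, and no expression call of a member changed. Leaving out a library in turn gave 5 to 7 exons across tissues, 3 to 4 after PladB, 0 for the interaction, 6 genes in cortex and 4 after PladB. The call of the 63-bp exon of Apbb2 was gained without ESC replicate 1 (adjusted p = 2.36e-14), without ESC replicate 2 (7.54e-12) and with the first form of the prior (4.18e-14). With the first form, ESC calls of App (2.50e-10) and of the micro-exon of Apbb3 (0.0457) were gained and its heart call was lost (0.118). With the third form, the ESC call of App was gained (1.70e-09). The 84-bp exon of Apbb3 after PladB was lost with both (0.0680 and 0.0713).

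Several small values changed sign. With events of an exon summed, the allelic difference was 0.0198 for the 6-bp and -0.00560 for the 115-bp exon of Apbb2 in cortex, -0.00214 for the latter in kidney and 0.0148 for the 156-bp exon in PladB fibroblasts. With a fibroblast library left out, the PladB difference of the 156-bp exon ran from -0.0136 to 0.0114, with 0.00543 without PladB replicate 1. With its events summed it was -0.0684 (adjusted p = 9.13e-07), beside -0.00110 from the event with most reads. Its interaction ran from -0.0391 to 0.0355, that of the 54-bp exon of App from -0.0191 to 0.00432 and that of the 36-bp exon of Aplp2 from -0.00303 to 0.000331. The PladB difference of App expression was -0.0910 with quantile normalization. None of these was called, and the cause was not tested. Depth limits the C57BL/6J allele of Apbb3, Apbb2 in liver and Apbb3 after PladB.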

Other observations

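The ESC clones differed in several members at once. The share of all genes or exons that differed as much was not computed. The paper reports a lower correlation of PSI between its ESC replicates than in other groups, with their origin in distinct clones as the likely reason. Clone 1 had more App (346 against 85.2 TPM), Aplp1 (80.9 against 45.6), Aplp2 (482 against 363) and Apbb2 (17.9 against 11.9), and less Apbb1 (18.98 against 37.39). It included the 54-bp exon of App less (0.832 against 0.973) and the 63-bp exon of Apbb2 more (0.919 against 0.339). The allelic PSI of the latter was 0.862 and 0.193 on the C57BL/6J allele and 0.969 and 0.401 on the SPRET/EiJ allele in clones 1 and 2, so the clones differed on both alleles. The summed neuronal markers were 179 TPM in clone 1 and 109 in clone 2, the pluripotency markers 3037 and 3083, the fibroblast markers 42.9 and 18.5 (Col1a1 19.6 and 4.77) and the lymphocyte markers 4.79 and 26.8 (Cd3e 3.73 and 25.4). Their part in the differences between the clones was not tested. With 1 library per clone, no test of these differences was made.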
